A study of Mus musculus with 5 samples.

Results

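The genes described are 9 fibroblast growth factor (FGF) genes of the hair cycle, 5 ligands (Fgf5, Fgf7, Fgf10, Fgf18 and Fgf22) and the 4 FGF receptors (Fgfr1 to Fgfr4). They were taken by name from the 24100 genes of the count table, and all 9 were found and passed the filter on low counts. RNA was sequenced from cells sorted out of the back skin of male mice of a mixed CD1 and C57Bl6J background. The first group is 2 libraries of quiescent melanocyte stem cells (McSC), the unpigmented reserve cells of the follicle's pigment lineage, from Dct-eGFP+ mice aged 60 and 62 days in second telogen, the resting phase. The second group is 3 libraries of melanocytes from Dct-EGFP+ Lef1-RFP+ mice aged 10 days in full anagen, the growth phase. Each library pooled cells of 2 to 4 males. Both groups were sorted for the green reporter named for the pigment cell gene Dct, for medium to low integrin α6, and against CD34, Sca1, CD140a (a fibroblast marker), CD45 and CD31. For melanocytes the gate also required the Lef1 reporter and c-Kit. The groups thus differ at once in gate, reporter genotype, age and phase of the hair cycle, and these cannot be told apart.

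FGFs are secreted proteins that bind receptor tyrosine kinases together with heparan sulfate on the cell surface, and the receptors signal through the RAS-ERK relay. In the hair follicle, dermal papilla cells are a known source of FGF7 and FGF10, whose receptor is the epithelial splice form of FGFR2. FGF5 is made by the outer root sheath late in anagen and ends hair growth, and mice without it grow long hair. FGF18 is known for holding follicles in telogen. Cultured melanocytes respond to FGF2, which acts through FGFR1.

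Total counts ranged from 17512381 to 124530834 per library, and 3 counts corresponded to 0.0241 to 0.171 CPM (counts scaled to a common library total). Melanocyte lineage markers were present in all 5 libraries, with a summed level of 21503 and 22759 CPM in quiescent McSC and 3159, 18377 and 19984 CPM in melanocyte libraries 1 to 3. Melanocyte library 1 thus stood apart from the other 2 in its pigment genes. Of the 10 lineage markers, 0 were called higher in melanocytes and 4 lower. Markers of other skin cells were also present. Of 14 dermal papilla and fibroblast markers, 12 were called higher in melanocytes and 0 lower. Their summed level was 92.1 and 46.5 CPM in quiescent McSC and 5810, 2212 and 2025 CPM in the melanocyte libraries, and none was at 0 in either group. Pdgfra, the gene of CD140a, read 0.850 and 0.223 CPM in quiescent McSC and 75.0, 24.6 and 16.9 CPM in melanocyte libraries 1 to 3. All 15 measured hair shaft and inner root sheath markers were called higher in melanocytes (47.0 to 90.1 against 3843 to 5704 CPM summed), with Krt34 at 0 in quiescent McSC. Markers of the outer root sheath, bulge and hair germ divided into 5 higher and 2 lower of 11 (2811 to 3157 against 3158 to 4569 CPM summed). Muscle and pericyte markers were higher in 10 of 10 (5.84 and 6.01 against 133 to 279 CPM summed). Endothelial markers were higher in 9 of 10 and lower in 1 (11.1 and 12.8 against 36.7 to 66.3). Immune markers were higher in 6 of 10 and lower in 1 (16.7 and 24.2 against 32.0 to 55.4). Tnnt3 and Cldn5 were at 0 in quiescent McSC. Schwann cell markers divided into 5 higher and 4 lower of 10 (931 and 1143 against 213 to 284 CPM summed). Cd34 and Pecam1 (CD31), which the gate sorted against, were 9.98-fold and 22.8-fold higher in melanocytes. In bulk samples, fewer cells of a type and less RNA per cell cannot be told apart, so "higher in melanocytes" refers below to the libraries.

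Of the 9 FGF genes, 4 were called higher in melanocytes (Fgf5, Fgf10, Fgfr2 and Fgfr3), 0 were called higher in quiescent McSC and 5 were not called. A gene was called at an adjusted p under 0.05 in edgeR's quasi-likelihood test over 16953 genes. By the same rule 55.4% of all tested genes were called, 29.1% with the higher level in melanocytes and 26.2% with the lower. The median log2 fold change (melanocyte minus quiescent McSC) was 2.23 over the 9 genes and 0.03 over all tested genes. The ranges of the 2 groups were separate in 5 of the 9 genes; among all tested genes this share was 74.5%. Without melanocyte library 1 the counts were 5 higher and 1 lower, since Fgf22 and Fgfr1 then passed the threshold.

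**Figure D1:**
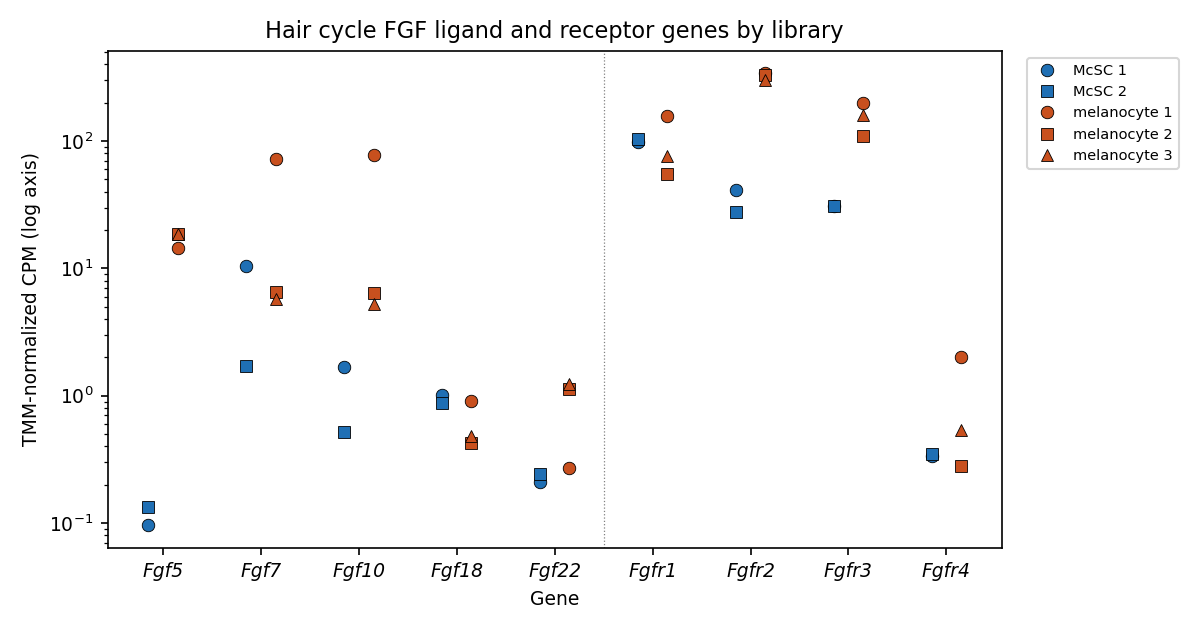
TMM-normalized CPM (log axis) of the 9 FGF genes, one point per library, quiescent McSC (blue) and melanocytes (orange). The groups are separate for Fgf5, Fgf10, Fgf22, Fgfr2 and Fgfr3. For Fgf7 and Fgf10, melanocyte library 1, at 72.4 and 78.2 CPM, lies far above the other melanocyte libraries.

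Fgf5 (Entrez 14176, chromosome 5, 98254184 to 98277033, plus strand, GRCm38) showed the largest difference among the 9 genes. Its level was 0.0962 and 0.134 CPM in quiescent McSC libraries 1 and 2, from 6 and 15 counts. In melanocyte libraries 1 to 3 it was 14.5, 18.5 and 18.8 CPM. Every melanocyte library was thus far above both quiescent McSC libraries. The group means were 17.2 ± 2.40 (SD, n = 3) against 0.115 ± 0.0266 CPM (SD, n = 2), a 149.9-fold ratio. The log2 fold change was 7.17 ± 0.33 (SE), with an adjusted p of 5.87e-05 by edgeR. Unlike the pigment genes, Fgf5 was at a similar level in melanocyte library 1 and in the mean of the other 2 (log2 ratio -0.36). Hair shaft and inner root sheath markers had a median log2 ratio of -0.28 between the same libraries and outer root sheath, bulge and hair germ markers 0.47. Their part in the Fgf5 difference was not tested.

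The stretch of 250 bases before the RefSeq start of Fgf5 (GRCm38.p6, chr5:98253934-98254183, plus strand) is shown because this gene had the largest difference. Capitals mark GC boxes, GGGCGG on either strand.
Fgf5: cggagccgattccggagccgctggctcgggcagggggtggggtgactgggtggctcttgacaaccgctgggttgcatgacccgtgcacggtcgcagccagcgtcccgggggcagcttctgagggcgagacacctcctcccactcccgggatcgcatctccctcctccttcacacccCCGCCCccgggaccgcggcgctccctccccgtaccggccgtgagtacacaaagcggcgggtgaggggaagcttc
It holds 1 GC box and 70.8% G and C, against a median of 52.4% over 32851 RefSeq promoters of the same length, of which 32.7% hold a GC box. RefSeq gave such a stretch for 8 of the 9 genes (not for Fgfr1), and 6 of the 8 held a GC box. Fgfr3 had 2 such stretches, both with GC boxes, and counts once. The 2 genes without were Fgf7 and Fgfr2, and the start of Fgfr2 is in doubt, as given below. None of the 8 held, on either strand, TATAAA, the TATA box letters searched (in 12.4% of all promoters). Nor did any hold CTTTGA, the only LEF/TCF core form searched (13.8%), or CACGTG, the only E-box form searched (6.02%). Other forms of these sites were not searched, so the 8 stretches cannot be said to lack them. The matches describe letters in this window and say nothing of binding.

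Fgf10 and Fgf7 encode related ligands of the dermal papilla, and both were highest in melanocyte library 1. Fgf10 (Entrez 14165, chromosome 13, 118714699 to 118792573, plus strand) stood at 1.67 and 0.518 CPM in quiescent McSC and at 78.2, 6.45 and 5.29 CPM in melanocyte libraries 1 to 3. The groups did not overlap, but melanocyte library 1 was 13.3 times the mean of the other 2. The log2 fold change was 4.81 ± 1.55 (SE, edgeR adjusted p = 0.0388). Without melanocyte library 1 it was 2.46 (adjusted p = 0.00725). The call was lost without quiescent McSC library 1 (adjusted p = 0.113) or 2 (0.187), and with limma-voom (0.0891).

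Fgf7 (Entrez 14178, chromosome 2, 126034658 to 126091185, plus strand) stood at 10.4 and 1.71 CPM in quiescent McSC. Melanocyte libraries 1 to 3 gave 72.4, 6.48 and 5.72 CPM. The groups overlapped, since quiescent McSC library 1 lay above melanocyte libraries 2 and 3. Fgf7 was not called (log2 fold change 2.23 ± 1.39 SE, edgeR adjusted p = 0.215), and without melanocyte library 1 the log2 fold change was 0.03 (adjusted p = 0.975). It was 4.04 without quiescent McSC library 1 and 1.44 without quiescent McSC library 2, both uncalled (adjusted p = 0.176 and 0.54).

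Between the melanocyte libraries, several dermal markers moved with both ligands. Corin, a protease gene of the dermal papilla, read 449, 45.9 and 31.1 CPM in melanocyte libraries 1 to 3. The ratio of Fgf10 to Corin CPM was 0.174, 0.140 and 0.170 in these libraries, and that of Fgf7 to Corin 0.161, 0.141 and 0.184. Both ratios thus varied far less than the genes themselves between these libraries. They did not carry over to quiescent McSC, where Corin read 0.513 and 0.205 CPM, under both ligands, whereas in melanocytes it lay above them. Corin was picked for this after its values were seen. Dcn, a fibroblast gene of the same list, did not share the high library 1, at 555, 533 and 567 CPM in melanocytes. The whole dermal papilla and fibroblast list had a median log2 ratio of 1.64 between melanocyte library 1 and the mean of the other 2, against 3.74 for Fgf10, 3.57 for Fgf7 and -2.45 for the melanocyte lineage list. Between quiescent McSC libraries 1 and 2 the same dermal list had a median log2 ratio of 1.08. Dcn differed most, at 17.9 and 0.937 CPM, whereas Lum (0.096 and 0.116) and Thy1 (2.68 and 2.82 CPM) were slightly lower in library 1. Fgf7 and Fgf10 were also higher in quiescent McSC library 1, at 6.06 and 3.22 times library 2. The part of dermal RNA in these differences was not tested.

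**Figure D2:**
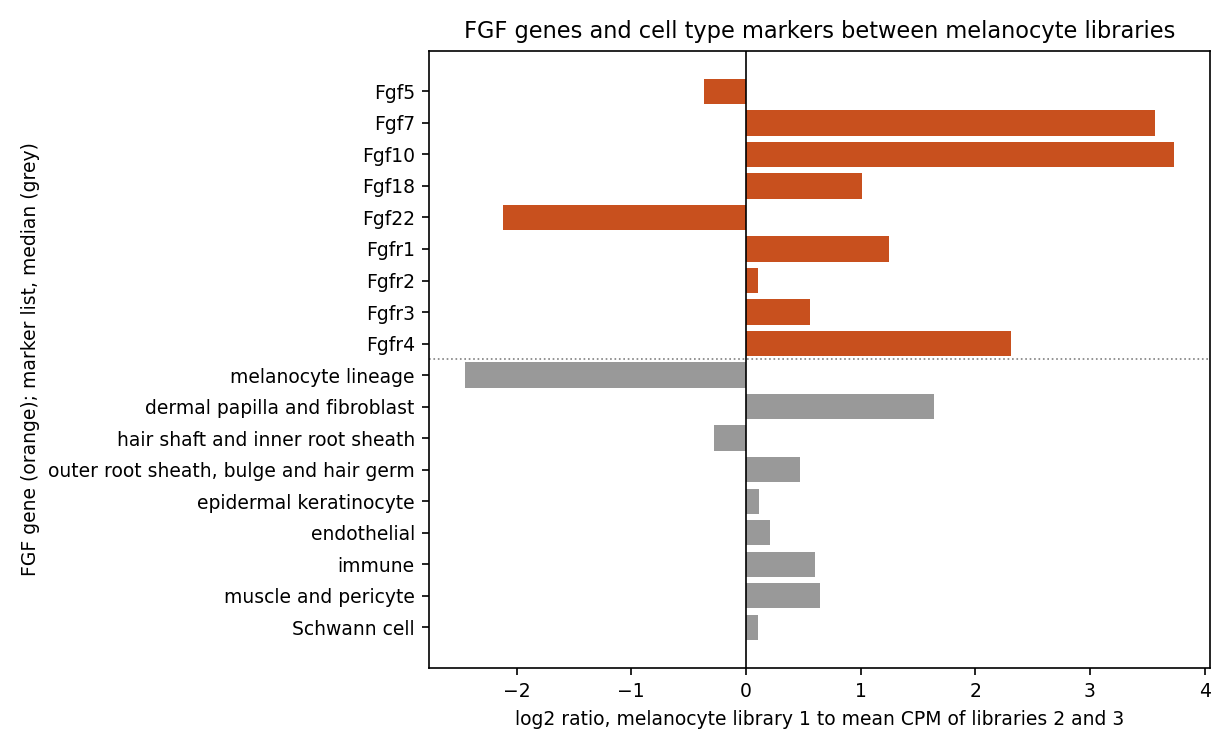
Log2 ratio of melanocyte library 1 to the mean CPM of melanocyte libraries 2 and 3, for the 9 FGF genes (orange) and as the median over each cell type marker list (grey). Fgf10 (3.74) and Fgf7 (3.57) are farthest to the right. Fgfr4 (2.31), Fgfr1 (1.25), Fgf18 (1.01) and Fgfr3 (0.56) are also to the right, as is the dermal list (1.64). Fgf22 (-2.12) is to the left with the melanocyte lineage list (-2.45), Fgf5 is at -0.36 and Fgfr2 (0.10) is near 0.

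The stretches before the starts of this pair are shown because both genes were highest in melanocyte library 1 (plus strand, chr13:118714449-118714698 for Fgf10 and chr2:126034408-126034657 for Fgf7), with GC boxes in capitals.
Fgf10: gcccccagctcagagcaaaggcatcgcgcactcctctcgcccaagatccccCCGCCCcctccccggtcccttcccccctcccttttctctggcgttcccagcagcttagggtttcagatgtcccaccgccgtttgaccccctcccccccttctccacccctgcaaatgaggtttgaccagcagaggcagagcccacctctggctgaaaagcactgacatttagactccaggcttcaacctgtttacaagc
Fgf7: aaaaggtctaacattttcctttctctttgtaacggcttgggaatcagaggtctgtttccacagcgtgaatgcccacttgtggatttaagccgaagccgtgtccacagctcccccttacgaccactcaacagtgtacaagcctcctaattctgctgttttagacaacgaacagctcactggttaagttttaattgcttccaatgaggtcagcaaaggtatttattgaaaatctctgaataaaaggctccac
Fgf10 holds 1 GC box and 61.2% G and C, whereas Fgf7 holds none and 43.6% G and C.

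Fgf18, the ligand of the resting follicle, was low in every library. It read 1.01 and 0.875 CPM in quiescent McSC and 0.912, 0.425 and 0.481 CPM in melanocyte libraries 1 to 3, from 9 to 98 counts. Melanocyte library 1 lay between the quiescent McSC values, and the gene was not called (log2 fold change -0.63 ± 0.47 SE, edgeR adjusted p = 0.292). Fgf22, an epithelial ligand of the same subfamily as FGF7 and FGF10, was lower still, at 0.209 and 0.241 CPM in quiescent McSC. Melanocyte libraries 1 to 3 gave 0.271, 1.13 and 1.23 CPM, from 11, 77 and 23 counts. The groups did not overlap, but melanocyte library 1 sat close to quiescent McSC. Fgf22 was not called (1.93 ± 0.72 SE, edgeR adjusted p = 0.0628), and it was called without melanocyte library 1 (2.37, adjusted p = 0.00365), with DESeq2 (1.94, 0.0437) and when only library size was used for scaling (2.13, 0.0453). The log2 ratio of Fgf22 between melanocyte library 1 and the mean of the other 2 was -2.12, on 11 counts in library 1, beside -2.45 for the melanocyte lineage list. Between the groups the lineage genes divided. The sum of the list was highest in quiescent McSC, where Fgf22 was lowest, and so were Dct, Kit, Mitf, Sox10, Pax3 and Ednrb. Tyr, Mlana, Pmel and Tyrp1, none of them called, were instead highest in melanocyte libraries 2 and 3, as was Fgf22. Tyr read 400 and 334 CPM in quiescent McSC and 219, 1456 and 1675 CPM in melanocyte libraries 1 to 3. The part of pigment cell RNA was not tested.

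Among the receptors, Fgfr2 was the most abundant in melanocytes and differed the most between the groups. Fgfr2 (Entrez 14183, chromosome 7, 130162451 to 130266808, minus strand), which in its epithelial form binds FGF7 and FGF10, read 41.2 and 27.8 CPM in quiescent McSC. The melanocyte libraries gave 339.8, 331.5 and 301.1 CPM. The melanocyte values lay close together and far above both others, a 9.39-fold ratio of means (324 ± 20.4, n = 3, against 34.5 ± 9.52 CPM, SD, n = 2). The log2 fold change was 3.23 ± 0.21 (SE, edgeR adjusted p = 0.000134). Counts per gene do not tell the epithelial from the mesenchymal splice form, which have different ligands. Fgfr2 was as high in melanocyte library 1 as in the others (log2 ratio 0.10), whereas Dct read 1073 CPM there and 5777 and 6505 CPM in libraries 2 and 3. Of 12 epidermal keratinocyte markers, 5 were called higher and 7 lower in melanocytes, with a summed level of 2493 and 3831 CPM in quiescent McSC and of 3431, 3701 and 2906 CPM in the melanocyte libraries. The follicle lists read otherwise. All 15 measured hair shaft and inner root sheath markers were called higher (47.0 to 90.1 against 3843 to 5704 CPM summed). Their median log2 ratio between melanocyte library 1 and the others was -0.28. Of 11 outer root sheath, bulge and hair germ markers, 5 were called higher and 2 lower. The part of epithelial RNA in the Fgfr2 difference was not tested.

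Fgfr3 (Entrez 14184, chromosome 5, 33721724 to 33737068, plus strand), a receptor also found in skin epithelium, followed with a smaller difference. It read 30.9 and 30.6 CPM in quiescent McSC and 198, 109 and 159 CPM in the melanocyte libraries. All 3 melanocyte values exceeded both quiescent McSC values, with a 5.06-fold ratio of means. The log2 fold change was 2.34 ± 0.26 (SE, edgeR adjusted p = 0.000795). The calls of Fgf5, Fgfr2 and Fgfr3 held in all 14 other fits run.

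The stretch before the first RefSeq start of Fgfr3 (chr5:33721474-33721723, plus strand) is shown as that of a called receptor, again with GC boxes in capitals.
Fgfr3: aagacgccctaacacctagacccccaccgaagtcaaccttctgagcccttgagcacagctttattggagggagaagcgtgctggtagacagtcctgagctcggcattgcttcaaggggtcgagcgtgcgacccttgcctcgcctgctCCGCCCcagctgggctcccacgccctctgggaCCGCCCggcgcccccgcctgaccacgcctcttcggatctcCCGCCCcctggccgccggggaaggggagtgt
It holds 3 GC boxes and 66.8% G and C. Of the other called genes, Fgf5 and Fgf10 held 1 each and Fgfr2 held 0. Among uncalled genes, Fgf22 held 3, Fgfr4 2, Fgf18 1 and Fgf7 0. The stretch of Fgfr2 is not shown, since the bases after its RefSeq start were not found in a GENCODE M21 transcript of the gene.

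Fgfr1 (Entrez 14182, chromosome 8, 25518759 to 25575718, plus strand), the receptor of mesenchymal cells and of cultured melanocytes, did not pass the test in either direction. It read 97.4 and 103.9 CPM in quiescent McSC and 157, 55.5 and 76.3 CPM in the melanocyte libraries. Melanocyte library 1 lay above and libraries 2 and 3 below both quiescent McSC values, so the groups overlapped. Fgfr1 was not called (log2 fold change -0.07 ± 0.42 SE, edgeR adjusted p = 0.904). Without melanocyte library 1, in which dermal markers were higher and melanocyte lineage markers lower, it was called higher in quiescent McSC (-0.61, adjusted p = 0.0159). The part of these cell types in the Fgfr1 values was not tested. The sign of Fgfr1 was positive without melanocyte library 2 (0.19), without library 3 (0.08) and with library size only (0.18), none of them called.

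Fgfr4 (Entrez 14186, chromosome 13, 55152818 to 55168759, plus strand), a receptor best known from liver and muscle, had 10 to 82 counts per library. It read 0.337 and 0.348 CPM in quiescent McSC and 2.02, 0.279 and 0.535 CPM in the melanocyte libraries. The groups overlapped and it was not called (1.47 ± 0.88 SE, edgeR adjusted p = 0.203). Without melanocyte library 1 its log2 fold change was 0.14.

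The library is not stranded, so reads from an overlapping gene on the other strand cannot be told apart. GENCODE M21 places such exons at Fgf10 (Gm16263), Fgfr1 (Gm16159) and Fgfr3 (G630022F23Rik), which share at most 69, 164 and 511 bases of one exon. Gm16159 had at most 3 counts in any library. Gm16263 and G630022F23Rik were not found by name in the count table, so a part of the Fgf10 and Fgfr3 counts may be theirs.

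The makeup of the receptor RNA within a library needs no scaling between libraries. Per kilobase of exon, Fgfr1 made up 54.0% and 59.8% of the summed counts of the 4 receptors in quiescent McSC, and 20.6%, 10.6% and 13.05% in melanocyte libraries 1 to 3. Fgfr2 made up 21.9% and 15.3% in quiescent McSC and 42.7%, 60.5% and 49.2% in melanocytes. Fgfr3 made up 23.6% and 24.3% against 35.9%, 28.8% and 37.5%. None of these 3 shares overlapped between the groups. The mean share of Fgfr1 fell by 42.2 percentage points from quiescent McSC to melanocytes, and those of Fgfr2 and Fgfr3 were 32.2 and 10.1 points higher in melanocytes. Each of the 3 differences had an exact two-sided permutation p of 0.2, the smallest that 2 against 3 libraries allow, so the test cannot pass the threshold. The share of Fgfr4 stayed at or under 0.742% in every library and overlapped (exact permutation p = 0.6). These are 4 shares that sum to 100%, so they are not independent, and adjustment over them leaves no p under 0.2. The summed level of the 4 receptors was 18.3 and 17.6 CPM per kilobase in quiescent McSC and 77.0, 53.1 and 59.3 in melanocytes.

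**Figure D3:**
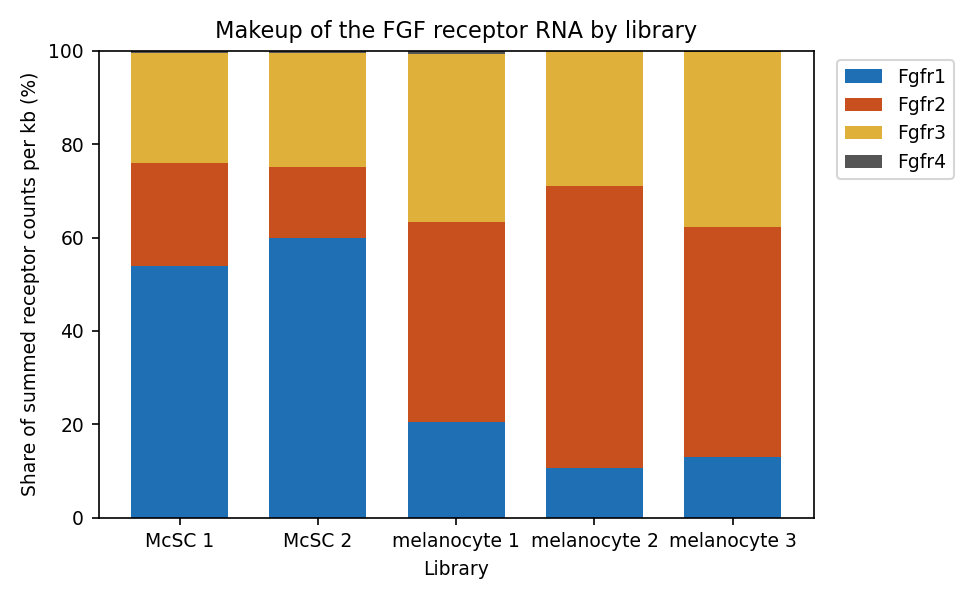
Share (%) of each receptor gene in the summed counts per kilobase of Fgfr1 to Fgfr4, one bar per library. Fgfr1 is the largest share in both quiescent McSC libraries (54.0% and 59.8%) and the smallest of the 3 main receptors in every melanocyte library, and Fgfr2 is the largest there (42.7% to 60.5%).

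Levels can be ordered between genes per kilobase of exon. In quiescent McSC the order was Fgfr1 (10.2 ± 0.461 CPM per kilobase, SD, n = 2), Fgfr3 (4.30 ± 0.0256), Fgfr2 (3.34 ± 0.921), Fgf7 (1.86 ± 1.89), Fgf18 (0.794), Fgf10 (0.238), Fgf22 (0.10002), Fgfr4 (0.0967) and Fgf5 (0.0460). The ranges of Fgfr2 and Fgf7, of Fgf7 and Fgf18, and of Fgf22 and Fgfr4 overlapped, and the other neighbours were separate. Fgfr3 above Fgfr2 held only for this length: per kilobase of the longest transcript, a length tried after seeing the data, Fgfr2 read 9.31 and 6.27 and Fgfr3 7.27 and 7.21, so the ranges overlapped and the order of the means turned. Fgf5 was thus the lowest of the 9 genes there. In melanocytes the order was Fgfr2 (31.4 ± 1.97 CPM per kilobase, SD, n = 3), Fgfr3 (21.7 ± 6.22), Fgfr1 (9.73 ± 5.40), Fgf7 (8.69 ± 11.8), Fgf5 (6.89 ± 0.959), Fgf10 (6.52 ± 9.08), Fgf18 (0.511), Fgf22 (0.390) and Fgfr4 (0.267). There, Fgfr2 was separate from Fgfr3 and Fgf10 from Fgf18, and all other neighbours overlapped. With the longest transcript, Fgf10 stood before Fgf5, with overlapping ranges, and Fgfr2 stayed separate above Fgfr3.

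For each called gene, the genes with the closest profile over the 5 libraries were found by Euclidean distance of centred log2 CPM. For Fgf10 these were Alx4 (distance 0.48) and Rspo3 (0.61), a WNT-enhancing ligand gene that is also in the dermal list. Alx4, a homeobox gene of mesenchyme, read 152, 12.6 and 9.78 CPM in melanocyte libraries 1 to 3, and thus shared the high library 1. For Fgf5 the closest were Gykl1 (0.54) and Foxq1 (0.59), the latter a transcription factor gene of the hair shaft at 162, 199.6 and 188 CPM in melanocytes. For Fgfr2 they were Fanci (0.16) and Spint1 (0.18), and for Fgfr3 Tonsl (0.16) and Kcnab3 (0.20). With 2 groups and 5 libraries, many genes follow the same step, and the distances are a description.

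The other FGF genes divided near the background. Of 74 further genes in 6 lists, 69 were tested, 21 were called higher in melanocytes and 15 lower (30.4% and 21.7%), with a median log2 fold change of 0.03. Of 13 other secreted ligands, 8 were tested and 2 were called, both higher in melanocytes. Fgf2, the ligand that melanocytes respond to in culture, stood at 1.41 ± 0.170 (SD, n = 3) against 0.220 ± 0.0968 CPM (n = 2; 2.69 ± 0.47 SE, edgeR adjusted p = 0.00409), and Fgf20, a ligand of follicle placodes, at 0.674 ± 0.181 against 0.0446 ± 0.0504 CPM. The quiescent McSC value of Fgf20 rests on 5 and 1 counts, and leaving out one library at a time moved its log2 fold change between 3.03 and 5.94 (called each time). Fgf1 (-0.72 ± 0.33) and Fgf9 (0.43 ± 0.62) were not called. Of 4 homologous factors that stay inside the cell and act on sodium channels, Fgf13 was the one higher in quiescent McSC, where it read 13.4 and 9.89 CPM against 1.504, 0.586 and 1.07 CPM (-3.48 ± 0.43, edgeR adjusted p = 0.00112). Fgf12 was higher in melanocytes (2.46 ± 0.73, adjusted p = 0.0297 by edgeR), a call lost without melanocyte library 2 (0.0716) or 3 (0.0640) or quiescent McSC library 2 (0.146). Fgf14 had no count in quiescent McSC and 56 in melanocytes, at least 25.5-fold higher against 3 counts over the group.

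**Figure D4:**
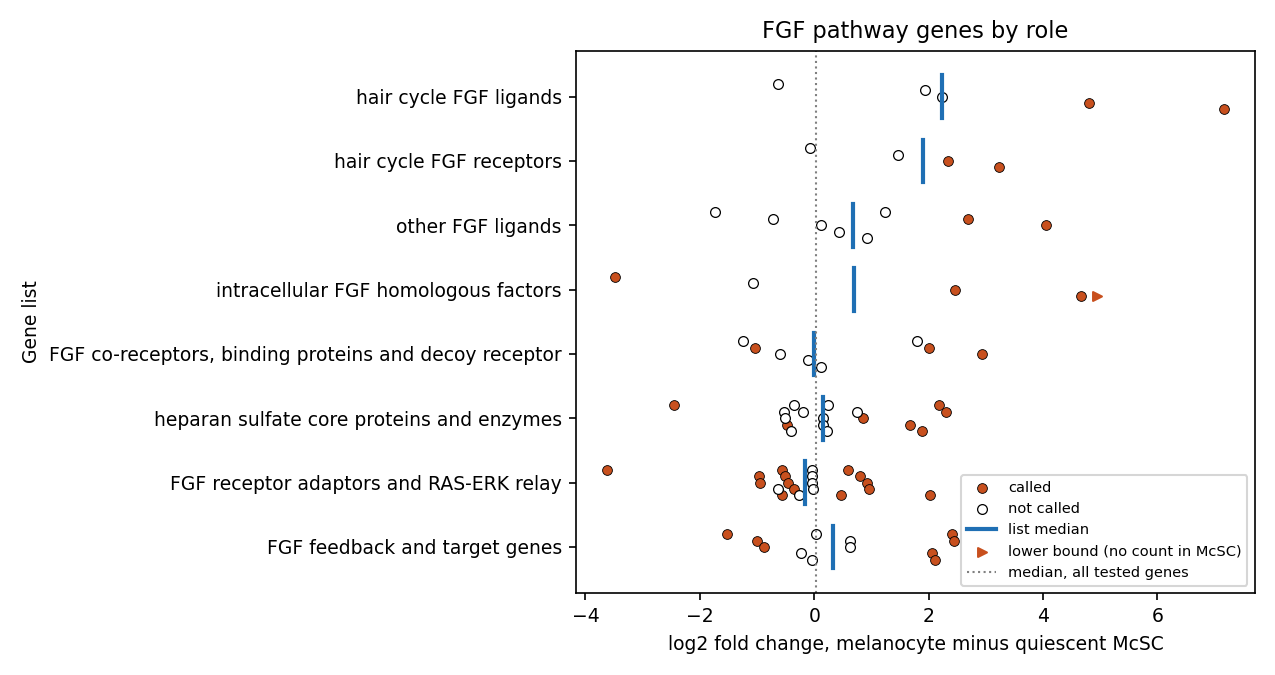
Log2 fold change (melanocyte minus quiescent McSC) of each tested gene of the FGF pathway by role, filled where called, with list medians (blue) and the median of all tested genes (dotted, 0.03). The hair cycle ligands and receptors have medians of 2.23 and 1.90, and the adaptor and RAS-ERK list one of -0.16; Fgf14 is drawn at its lower bound.

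Among partners of the receptors outside the cell, the co-receptor list had 25.0% called higher and 12.5% lower, and the heparan sulfate list 29.4% and 11.8%. These shares lie near or under the 29.1% and 26.2% of all tested genes. Of 8 co-receptors, binding proteins and the decoy receptor, Flrt2 (2.94 ± 0.21) and Flrt1 (2.01 ± 0.66) were higher in melanocytes and Flrt3 (-1.04 ± 0.17) lower; these are membrane proteins that bind FGF receptors. The Flrt1 call (edgeR adjusted p = 0.0414) was lost without melanocyte library 2 (0.0573), without quiescent McSC library 1 (0.138) or 2 (0.191), and after thinning to the total count of the shallowest library (0.0534). The decoy receptor gene Fgfrl1 was not called (-0.60 ± 0.21, edgeR adjusted p = 0.0507), but passed without melanocyte library 1 (0.0193) and with DESeq2 (0.0104), limma-voom (0.0248) or DESeq2 size factors (0.0489). Of 17 genes of heparan sulfate core proteins and enzymes, 5 rose and 2 fell from quiescent McSC to melanocytes. Sdc1, an epithelial core protein, stood at 337 ± 67.5 against 74.4 ± 12.2 CPM, and Gpc4 at 42.9 ± 7.31 against 8.65 ± 0.463 CPM. Sulf2, which trims sulfate from heparan sulfate outside the cell, stood at 529.6 ± 32.4 CPM in quiescent McSC and only 96.8 ± 9.70 CPM in melanocytes (-2.45 ± 0.14, edgeR adjusted p = 8.07e-05).

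Inside the cell, 6 of 20 adaptor and RAS-ERK genes were called higher in melanocytes and 8 lower. Gab1, a docking protein of receptor kinases, had the largest difference, at 572 and 530.5 CPM in quiescent McSC against 45.9, 42.4 and 46.2 CPM (-3.62 ± 0.12, edgeR adjusted p = 3.66e-05). Frs2, the adaptor that FGF receptors phosphorylate directly, read 92.3 ± 4.27 and 91.1 ± 6.16 CPM and was not called (-0.02 ± 0.11, edgeR adjusted p = 0.894). Hras (2.03 ± 0.13) and Braf (0.97 ± 0.13) were higher in melanocytes and Sos2 (-0.95 ± 0.12) in quiescent McSC. Of 12 feedback and target genes of the relay, 4 were higher in melanocytes, including Etv4 (2.45 ± 0.14) and Spred2 (2.11 ± 0.17), and 3 in quiescent McSC, including Spry2 (-1.53 ± 0.17) and Spred1 (-1.004 ± 0.104). Dusp6, an ERK phosphatase gene that the relay induces, was not called (-0.23 ± 0.14, edgeR adjusted p = 0.205), nor was Spry4 (0.62 ± 0.54). These genes also answer to other receptors of the relay, Kit among them, whose own level was 1599 ± 82.2 CPM in quiescent McSC against 365 ± 181 CPM in melanocytes. The part of Kit or of any other receptor in these differences was not tested.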

How the data were processed

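Poly-A selected RNA was sequenced without strand information in 5 libraries, labelled as biological replicates. The file deposited by the authors holds whole-number counts per gene and library, read as raw counts. The genome build mm10 and the tools Salmon 0.8.2 and STAR 2.5.2a are named, per the submitters' processing notes, with no stated role; which program counted the genes, and on which annotation, is not given in the sources used here. Of 24100 Entrez identifiers, 24045 matched a RefSeq symbol (GRCm38.p6). Exon lengths came from GENCODE M21 (the same build) as the union of a gene's exons.

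Genes were filtered with filterByExpr, TMM-normalized and tested with edgeR 4.0.16 (quasi-likelihood F-test, R 4.3.3), two-sided, all 5 libraries without covariates, Benjamini-Hochberg threshold 0.05. The SE comes from the fold change and F. CPM values are TMM-normalized. The procedure was tested on simulated data. Intervals of depth cover counting error only. Alternatives were DESeq2 1.42.0, limma-voom (limma 3.58.1), other scalings and filters, thinning, a replicate block and leaving out each library.

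The members, lists and rules were chosen with earlier results of these data known. Named were all 9 members, up to 4 called genes per list by smallest adjusted p and 7 further pathway genes, the 2 closest profiles per called member, and genes of the sort and of marker lists. Other names (Corin, Krt34, Tnnt3, Cldn5, Lum, Thy1, Tyr, Mlana, Mitf, Sox10, Pax3 and Ednrb) were picked after their values were seen.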

Additional observations from a re-analysis of the deposited data

How the results depend on the processing

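Fgf5, Fgfr2 and Fgfr3 kept direction and call in all 14 alternatives (log2 fold changes 6.98 to 7.46, 2.97 to 3.54 and 2.13 to 2.57). Leaving out each library in turn gave 3 to 5 of the 9 FGF genes higher in melanocytes and 0 to 1 higher in quiescent McSC. The log2 fold change then ranged from 2.46 to 5.85 for Fgf10, 0.03 to 4.04 for Fgf7, 1.61 to 2.37 for Fgf22 and -0.61 to 0.19 for Fgfr1. Of all genes, 3310 to 5148 were higher in melanocytes and 2955 (without quiescent McSC replicate 2) to 4857 higher in quiescent McSC, and of the other FGF genes 12 (without the same library) to 21 and 10 to 22. Fgf10 was not called with limma-voom (4.03), Fgf22 was called with DESeq2 (1.94) and library size only (2.13), and Fgfr1 turned to 0.18 with library size only, which moved the median of all genes from 0.03 to 0.26 and the share of calls higher in melanocytes from 52.6% to 63.7%. The replicate numbers are not stated to pair libraries, and same-numbered libraries correlated little in their deviations (0.04 and -0.06). The deviations of the 2 quiescent McSC libraries mirror each other, so these values are not independent and cannot decide on pairing. With the replicate block, in which melanocyte replicate 3 has no partner, 7409 genes were called against 9385, Fgf7 was called (2.37, adjusted p = 0.00368), and Fgf9 (-0.19), Pmel (-0.19) and Tyrp1 (-0.88) changed sign, while Fgf12 lost its call (1.99, adjusted p = 0.0796). Signs of genes uncalled in the main analysis also changed for Frs2 (0.20 with library size only, 0.00034 with the stricter filter of 5 CPM in 2 libraries, -0.079 to 0.041 over left-out libraries), Tyrp1 (-0.34 with limma-voom, -0.29 to 0.59 over left-out libraries, called without melanocyte replicate 1), and, over left-out libraries, Fgf9 (-0.20 to 0.72) and Spry4 (-0.078 to 0.90). The mean of Fgfr3 minus Fgfr2 per kilobase in quiescent McSC turned from 0.954 to -0.548 CPM with the longest transcript as length, an alternative chosen after seeing the data. The cause of these changes was not tested, other than the length itself. The stricter filter left Fgf18, Fgf22 and Fgfr4 untested. Levels of Fgf22 and Fgfr4 in melanocyte library 3 rest on 23 and 10 counts.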

Other observations

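The 5 other FGF ligands that did not pass the filter on low counts had few counts. Fgf15, the mouse counterpart of human FGF19, had 18 and 1 counts in quiescent McSC libraries 1 and 2 and none in melanocytes, so its counts came almost wholly from one library. Fgf3 had 0 counts in quiescent McSC and 1, 3 and 4 in melanocyte libraries 1 to 3. Fgf8 had 4 and 4 counts in quiescent McSC and 3, 2 and 0 in melanocytes.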
